A study of Homo sapiens with 12 samples.

Results

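Genes of protein folding in the endoplasmic reticulum (ER) and of the unfolded protein response were followed in 2 HEK293 lines, human embryonic kidney cells in which an AlkB homolog could be switched on. The list held 38 genes, chosen by name for their roles as stress transducers, chaperones, co-chaperones, disulfide enzymes, secreted stress proteins and components of ER-associated degradation. The choice was made with earlier results of these data known. On the Illumina HumanWG-6 v3 array 36 of them had at least 1 probe under their current or an older symbol, with 49 probes in all out of 48803. After a filter on dim probes 33 members with 42 probes could be tested, out of 10159 named genes tested in the series. The 5 members without a test were ERN1 and HERPUD1, for which the annotation used here names no probe, and EIF2AK3, DNAJC3 and PDIA3, whose probes did not pass the filter.

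The tested groups were the induced ALKBH7 line and the induced ALKBH4 line, each set against the same line left uninduced, with 3 arrays in each of the 4 groups. In each line a FLAG-tagged cDNA of ALKBH7 or of ALKBH4 stood behind a tetracycline-inducible promoter at 1 genomic site of the same host line, and the lines were grown up from single resistant colonies. Induced cells received 2 µg/ml doxycycline and were harvested 48 hours later, and uninduced cells received none, so that doxycycline and the transgene product cannot be told apart within a line. All 4 groups grew under the same selection with blasticidin-S and hygromycin B, and no line without a transgene was analysed here. Nothing in the labels tells whether the 3 replicates came from different cultures, and the p-values therefore measure only the spread between these samples.

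The lumen of the ER is where secreted and membrane proteins fold. Unfolded proteins there are sensed by ERN1 (IRE1), EIF2AK3 (PERK) and ATF6. IRE1 removes a short intron from the XBP1 mRNA, which yields an active transcription factor, ATF6 is cut in the Golgi to release another, and PERK phosphorylates the initiation factor eIF2-alpha. The XBP1 and ATF6 factors raise the genes of chaperones, of disulfide exchange and of degradation, whereas the PERK arm slows translation and favours ATF4 and its target DDIT3. Most of these genes are expressed in every growing cell, since HEK293 cells too must fold their membrane proteins in the ER.

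Promoter elements that are known to bind ATF6, XBP1 and the CCAAT factor NF-Y marked a subset of the list, and they are shown because they tie the members to the response by sequence and not by expression. A RefSeq window (GRCh38.p14) of 250 bases before to 50 bases after a gene start was found for 34 members, the exceptions being DNAJC1, PDIA3, DERL1 and DERL3. The ER stress element (ERSE) was searched on both strands as CCAAT, then 9 bases, then CCACG, and was found in 7 of these 34 members (20.6%), against 21 of 15843 protein-coding genes with such a window (0.133%). In the following lines 5 bases flank each element, the capitals mark its CCAAT and CCACG parts, and each is written 5′ to 3′ along the strand on which it reads as ERSE.
XBP1: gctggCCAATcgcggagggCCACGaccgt
HSPA5: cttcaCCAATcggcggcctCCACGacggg
PDIA6: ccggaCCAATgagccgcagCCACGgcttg
CALR: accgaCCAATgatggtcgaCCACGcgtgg
CRELD2: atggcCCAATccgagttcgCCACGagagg
CANX: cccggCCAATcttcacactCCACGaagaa
HSP90B1: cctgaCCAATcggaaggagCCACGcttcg
The element of XBP1 lay at chr22:28800603-28800621 on the minus strand and began 52 bases before the gene start. That of HSPA5 lay at chr9:125241391-125241409 on the minus strand, 66 bases before the start, and that of PDIA6 at chr2:10812853-10812871 on the minus strand, 86 bases before an annotated start that lies within the gene's full span. The ERSE sequences of CALR (chr19:12938384-12938402) and CRELD2 (chr22:49918554-49918572) both read on the minus strand of genes transcribed from the plus strand, with first bases 225 and 80 bases upstream. CANX carried its element at chr5:179698778-179698796 on the plus strand, 151 bases before 1 of its annotated starts. HSP90B1 held the printed element at chr12:103930216-103930234 on the plus strand and another ERSE 89 bases before the start on the opposite strand.

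A shorter variant, ERSE-II (ATTGG, 1 base, CCACG), was present in HYOU1, SDF2L1 and HERPUD1, which is 3 of 34 members (8.82%), against 15 of the 15843 genes (0.0947%). It is shown for HYOU1 and SDF2L1, whose expression is described further on, with the ATTGG and CCACG parts in capitals.
HYOU1, distal: ctgggATTGGaCCACGtcacg
HYOU1, proximal: tactcATTGGaCCACGtccca
SDF2L1: ttttgATTGGtCCACGcttcc
The HYOU1 copies lay at chr11:119057380-119057390 and chr11:119057274-119057284 on the plus strand, 185 and 79 bases before the start of a gene transcribed from the minus strand, and the SDF2L1 copy at chr22:21642114-21642124 on the minus strand. An XBP1 binding sequence, TGACGTGG, occurred in 4 members (11.8%; HYOU1, DNAJC10, TXNDC5 and TXNDC11), against 166 genes (1.05%). In HYOU1 it overlapped the distal ERSE-II. The cAMP response element TGACGTCA occurred in 0 of 34 members and in 475 genes (3.00%). As the list was written from known genes of the response, these shares describe the list and are no independent finding about it, and a match is not evidence that a factor is bound there in HEK293 cells.

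**Figure D1:**
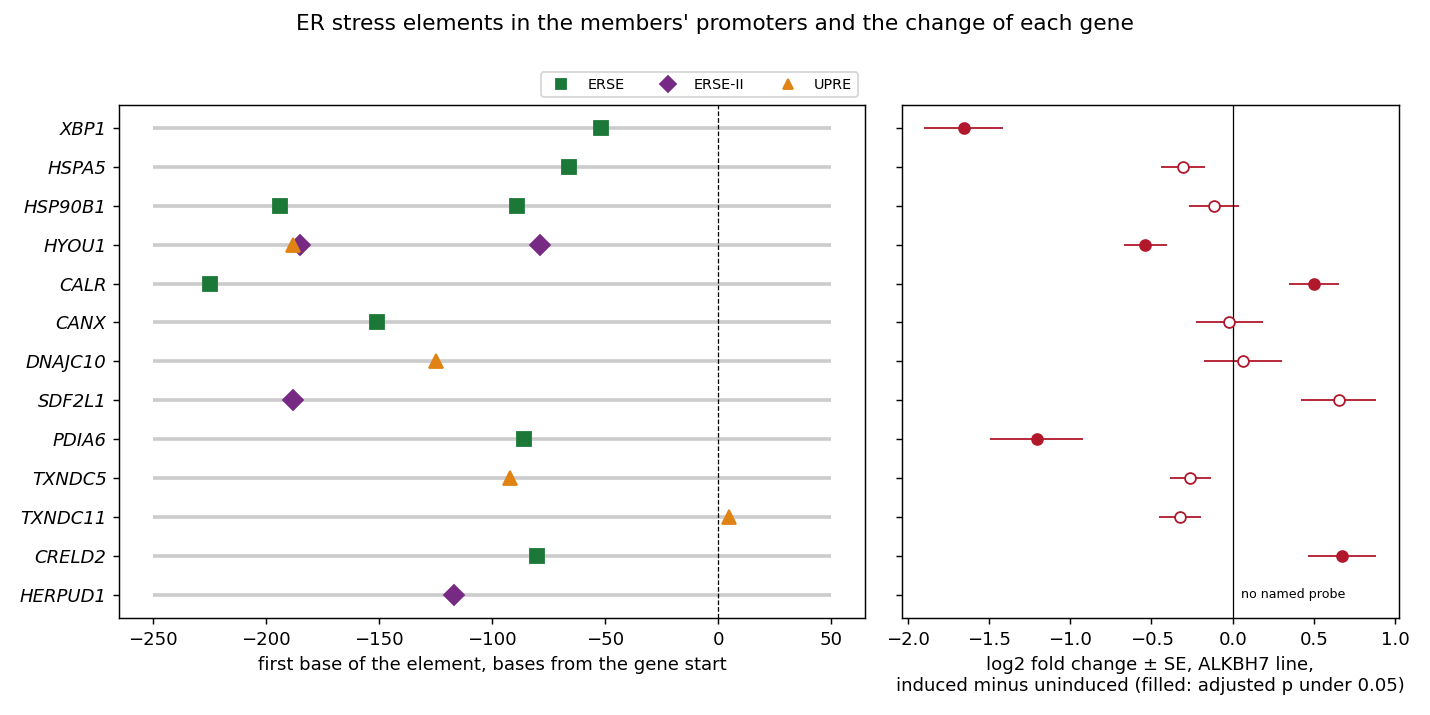
Position of ERSE (squares), ERSE-II (diamonds) and the TGACGTGG sequence (UPRE, triangles) in the promoters of 13 members, in bases from the gene start (left), and the log2 fold change ± SE of the same genes in the ALKBH7 line, induced minus uninduced, 3 arrays a group (right; filled circles have an adjusted p under 0.05). For PDIA6, CANX and TXNDC5 the start is 1 of several annotated ones. Members with ERSE include XBP1 and PDIA6, which fell, and CALR and CRELD2, which rose.

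Between 25.3% and 30.7% of probes were detected per array. The ALKBH7 probe gave the induced ALKBH7 line a mean log2 intensity of 13.04 ± 0.24, against 9.32 ± 0.30 in the uninduced ALKBH7 line (SD, n = 3 each). The ALKBH4 probe lies outside the introduced cDNA by the study's account and therefore checks nothing on these arrays. The study itself reported an increase of ALKBH4 after induction, by quantitative PCR and by Western blotting against the FLAG tag. The unnormalized medians were 98.9 to 121 on the 6 ALKBH7 arrays and 45.6 to 61.6 on the 6 ALKBH4 arrays, so that cell line and hybridization cannot be told apart. Uninduced ALKBH7 replicate 1 stood apart, with a mean correlation of 0.967 with the induced arrays of its line and of 0.940 with its own group. Of 8 genes known from HEK293 cells NEFL and VIM were detected on all 12 arrays and SIX2 and NES on 0, and of hepatocyte markers 0 of 3 were detected on any array. Of fibroblast markers COL1A1 was detected on 11 arrays and COL3A1 on 1, and of blood markers CD14 on 10. Of endothelial markers VWF was detected on 3 arrays and PECAM1 on 1. The other fibroblast, blood and endothelial markers with a probe were detected on 0 arrays. Of the 5 HEK293 genes that could be tested on ALKBH7 induction VIM fell by 0.95 in log2 units (adjusted p = 0.0155), whereas NEFL, PAX2, LHX1 and EYA1 had positive values of 0.05 to 0.46 that did not pass, and the median of the 5 was 0.32. Of 4 epithelial markers 2 were tested, and EPCAM fell by 0.74 (adjusted p = 0.00874). The summed intensity of the epithelial markers was 2106 to 2293 in induced and 2687 to 4085 in uninduced ALKBH7 arrays, and that of the HEK293 genes, of which VIM is by far the brightest, was 4263 to 5862 in induced and 5291 to 9785 in uninduced ALKBH7 arrays. The part of VIM and EPCAM in the results below was not tested.

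To ask how the pathway responded to ALKBH7, the induced and uninduced arrays of the ALKBH7 line were compared by limma's moderated test, with adjustment over all 15444 tested probes by the Benjamini-Hochberg method and the brightest probe standing for each gene. XBP1, PDIA6, MANF, OS9, HYOU1 and PDIA5 fell, and CALR and CRELD2 rose. The 6 members that fell were 18.2% of the 33 tested, against 10.4% of all genes, and the 2 that rose were 6.06%, against 12.4% of all genes. Together 8 members (24.2%) passed, close to the 22.8% of all genes, so the share of changed members did not stand out. In such bulk RNA fewer cells of a kind and less RNA per cell cannot be told apart. The median log2 fold change was -0.12 over the members and 0.05 over all genes. It was 0.07 and 0.11 when the arrays were scaled to a common median. Under that scaling 0 members passed, and of all genes 1 was called higher and 0 lower. Over all tested probes, 11 of 42 member probes fell (26.2%), against 12.1% of the named probes of the array, and 2 rose (4.76%), against 11.7%.

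Among the transducers XBP1 changed most. Its brightest probe read 10.76, 10.59 and 10.92 on the log2 intensity scale in the induced ALKBH7 arrays, against 11.79, 12.66 and 12.80 in the uninduced ALKBH7 arrays. All induced arrays lay below all uninduced ones, although uninduced replicate 1 stood about midway. XBP1 was 3.15-fold lower after induction, or -1.65 ± 0.24 (SE) as a log2 fold change, with an adjusted p of 0.00148. A separate XBP1 probe moved likewise, by -1.55 ± 0.24 (adjusted p = 0.00183). The probes are annotated to the transcripts of the unspliced and of the spliced form, but where they lie relative to the removed intron is not known here, so that splicing was not measured. The fall was -1.97 ± 0.18 without uninduced replicate 1 and -1.03 ± 0.24 when replicate 1 alone stood for the uninduced cells (adjusted p = 0.0177), a fit that takes the spread of this lone array from the remaining groups.

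ATF6, the transducer that is cut in the Golgi, read 9.26, 9.40 and 9.01 in induced ALKBH7 arrays, against 8.55, 9.49 and 9.30 in uninduced ones. These groups overlapped, and its log2 fold change of 0.11 ± 0.22 did not pass (adjusted p = 0.734). WFS1, an ER membrane glycoprotein that restrains ATF6, had 0.52 ± 0.21 (adjusted p = 0.0817). EIF2AK3, the PERK kinase, was detected on 1 of 12 arrays, with log2 intensities of 6.24, 6.19 and 6.37 in induced and 6.44, 6.49 and 6.54 in uninduced ALKBH7 arrays, which is at the level of undetected probes.

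**Figure D2:**
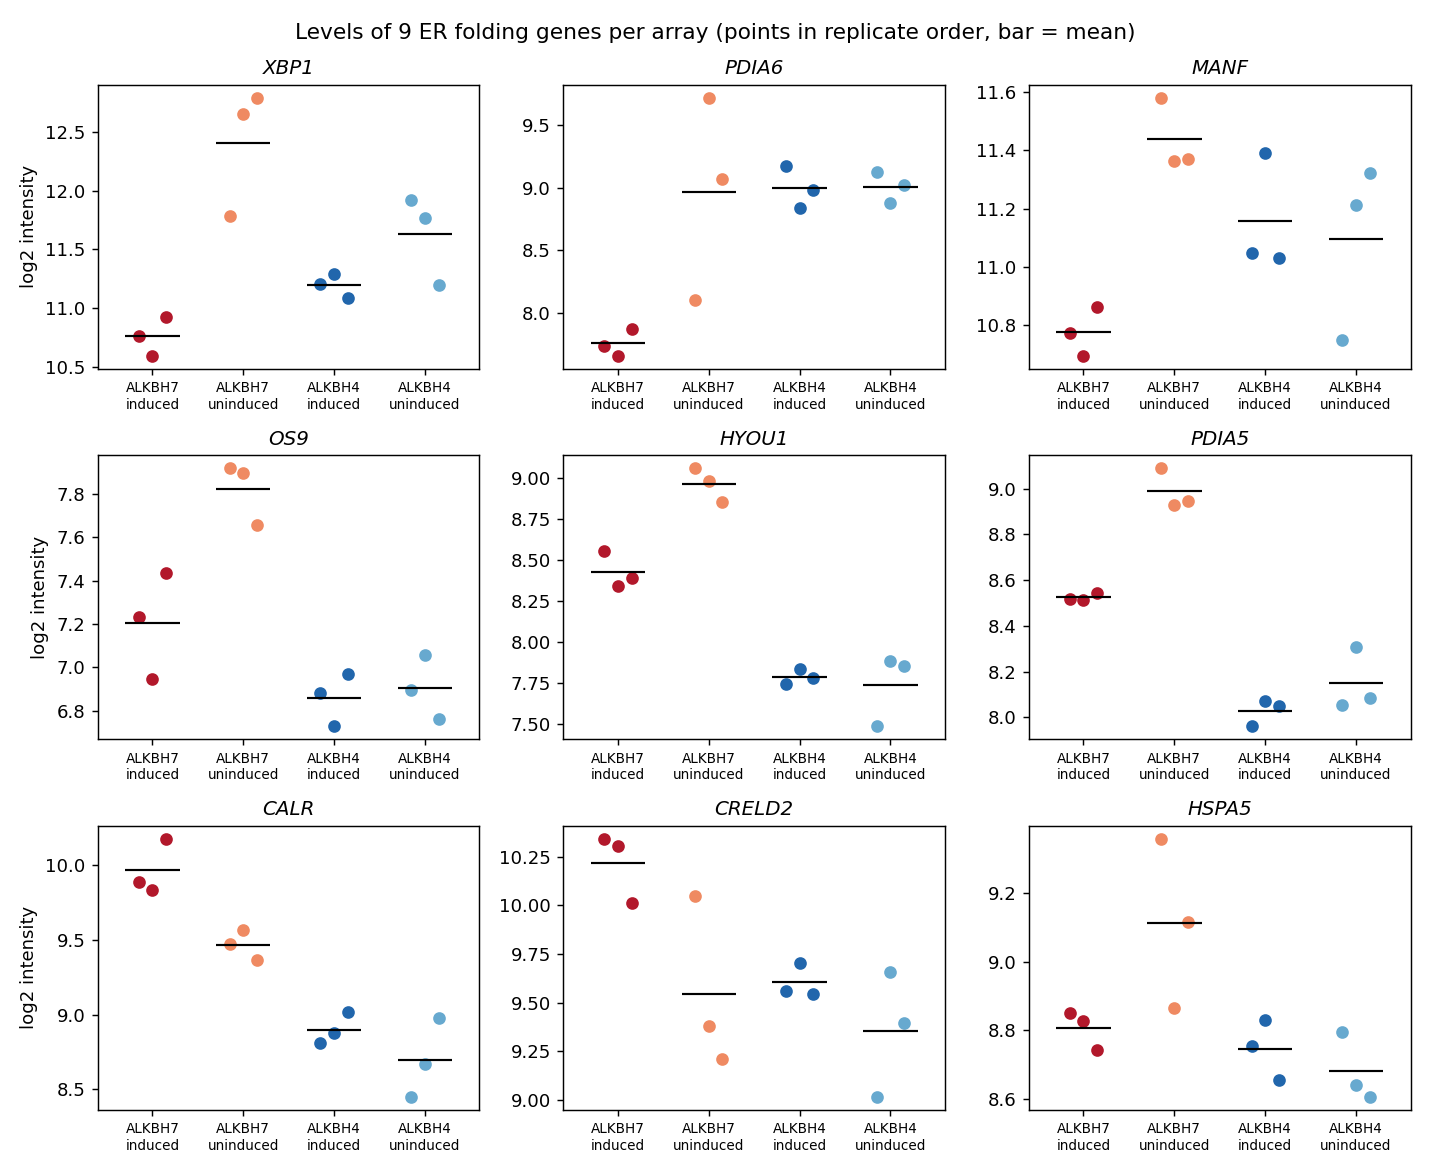
Normalized log2 intensity of the brightest probe of XBP1, PDIA6, MANF, OS9, HYOU1, PDIA5, CALR, CRELD2 and HSPA5 on each of the 12 arrays. Points are arrays in the order of their replicate numbers, bars are means of 3, and each panel has its own axis. The induced ALKBH7 arrays lie below the uninduced ones in XBP1 through PDIA5 and in HSPA5, and among the uninduced arrays replicate 1 lies nearest to the induced ones in XBP1 (11.79, about midway), PDIA6 (8.10) and CRELD2 (10.04, within their range).

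The chaperones moved in both directions, with HYOU1 lower, CALR higher and 3 of 5 not passing, where 22.8% of all genes passed. HYOU1, a large Hsp70-like protein that exchanges the nucleotide of BiP and carries a pair of ERSE-II in its promoter, read 8.55, 8.34 and 8.39 in induced ALKBH7 arrays, against 9.06, 8.98 and 8.85 in uninduced ones. The groups were separate, the log2 fold change was -0.54 ± 0.13 (adjusted p = 0.0132), and its dimmer probe had -0.79 ± 0.12 (adjusted p = 0.002). CALR, the soluble lectin chaperone calreticulin, read 9.89, 9.83 and 10.18 in induced arrays, against 9.47, 9.57 and 9.36 in uninduced arrays. It rose by 0.50 ± 0.15 (adjusted p = 0.0307), again without overlap, whereas CANX, its membrane-bound relative calnexin, had -0.02 ± 0.20 at its brightest probe.

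HSPA5, the central chaperone BiP, read 8.85, 8.83 and 8.74 in induced ALKBH7 arrays, against 9.36, 8.87 and 9.12 in uninduced arrays. Every induced array was below every uninduced one, though uninduced replicate 2 (8.87) nearly met the highest induced array, and the log2 fold change of -0.31 ± 0.14 did not pass (adjusted p = 0.111). HSP90B1, the ER paralog of Hsp90, had -0.12 ± 0.15. HSPA5 and HSP90B1 both carry ERSE, as do XBP1 and PDIA6.

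Of the co-chaperones, which deliver clients to BiP or drive its cycle, 0 of 6 tested passed. As 22.8% of all genes passed, a count from so few genes does not set the group apart. The largest log2 fold changes were 0.65 ± 0.23 for SIL1, a nucleotide exchange factor of BiP (adjusted p = 0.0576), 0.65 ± 0.23 for SDF2L1, a partner of the J-protein DNAJB11 (adjusted p = 0.0573), and -0.61 ± 0.24 for the J-protein DNAJB9 (adjusted p = 0.0751). DNAJB11 had -0.26 ± 0.14, and DNAJC1 and DNAJC10 lay between -0.13 and 0.06. The DNAJC1 probe was detected on 0 induced and 0 uninduced ALKBH7 arrays and passed the filter through ALKBH4 arrays alone. Its value is therefore one of background, and its lack of a pass tells nothing. SDF2L1 read 11.49, 11.54 and 11.26 in induced ALKBH7 arrays, against 11.40, 10.63 and 10.31 in uninduced ones, where replicate 1 again lay among the induced arrays.

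The disulfide enzymes held the second largest fall. PDIA6, a protein disulfide isomerase, read 7.74, 7.66 and 7.87 in induced ALKBH7 arrays, against 8.10, 9.72 and 9.07 in uninduced arrays. It was 2.31-fold lower after induction (log2 fold change -1.20 ± 0.29, adjusted p = 0.0109) without overlap. Uninduced replicate 1 decided its size, since the fall was -1.63 ± 0.17 without that array and -0.35 ± 0.17 (adjusted p = 0.202) with it as the only uninduced array.

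PDIA5, a related isomerase, read 8.52, 8.52 and 8.54 in induced ALKBH7 arrays, against 9.09, 8.93 and 8.95 in uninduced arrays, with little spread in either group. It fell by 0.46 on the log2 scale (SE 0.12, adjusted p = 0.0136). TXNDC5, another thioredoxin-domain protein, read 11.20, 11.13 and 11.29 in induced arrays, against 11.44, 11.44 and 11.52 in uninduced ones. TXNDC11 read 7.19, 7.27 and 7.32 in induced arrays, against 7.82, 7.40 and 7.54 in uninduced ones. Neither overlapped between the groups, yet the log2 fold changes of -0.26 ± 0.13 for TXNDC5 (adjusted p = 0.142) and -0.33 ± 0.13 for TXNDC11 (adjusted p = 0.0776) did not pass. P4HB, the founding isomerase, had -0.12 ± 0.14, ERO1A, the oxidase that recharges the isomerases, 0.19 ± 0.13, and PDIA4 0.37 ± 0.16 (adjusted p = 0.11).

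Both secreted stress proteins changed, in opposite directions. MANF, a neurotrophic factor held in the ER until stress, read 10.77, 10.69 and 10.86 in induced ALKBH7 arrays, against 11.58, 11.36 and 11.37 in uninduced arrays. It fell by 0.66 on the log2 scale (SE 0.16, adjusted p = 0.0122) without overlap. CRELD2 read 10.34, 10.30 and 10.01 in induced arrays, against 10.04, 9.38 and 9.21 in uninduced arrays. Its rise of 0.67 ± 0.21 (adjusted p = 0.0346) passed although uninduced replicate 1 lay above the lowest induced array. Without that replicate CRELD2 rose by 0.92 ± 0.17, and with it as the only uninduced array the value was 0.17 ± 0.22 (adjusted p = 0.645).

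In ER-associated degradation, which returns misfolded proteins to the proteasome, OS9 alone of 10 tested members passed at its brightest probe. Of all genes 22.8% passed. OS9, a lectin that recognises trimmed glycans, read 7.23, 6.95 and 7.44 in induced ALKBH7 arrays, against 7.92, 7.90 and 7.65 in uninduced arrays, and fell by 0.62 on the log2 scale (SE 0.15, adjusted p = 0.0117). SELENOS, a selenoprotein of the retrotranslocation complex, read 11.17, 11.12 and 11.03 in induced arrays, against 11.48, 11.31 and 11.44 in uninduced ones. The groups did not overlap, and its log2 fold change of -0.30 ± 0.12 had an adjusted p of 0.0909. The others without a pass ranged from -0.60 ± 0.22 for DERL1, a subunit of the retrotranslocation channel (adjusted p = 0.0643), and -0.42 ± 0.15 for EDEM1, a mannosidase-like protein (adjusted p = 0.0509), to 0.37 ± 0.14 for its relative EDEM2 (adjusted p = 0.0623). Over the whole list 14 of 33 members (42.4%) had groups without overlap in the ALKBH7 line, against 35.7% of all genes. The counts rested on single arrays, and those over all genes moved with them. Without induced ALKBH7 replicate 2 only XBP1 passed, beside 400 higher and 349 lower of all 10159 genes, and without induced replicate 1 there were 5 members, beside 496 and 429 genes. Without uninduced replicate 2 or 3 there were 6 each, CALR and CRELD2 no longer passing, beside 580 and 534 or 765 and 571 genes. Without uninduced replicate 1 there were 17 of 33 members, beside 2405 higher and 2056 lower genes.

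**Figure D3:**
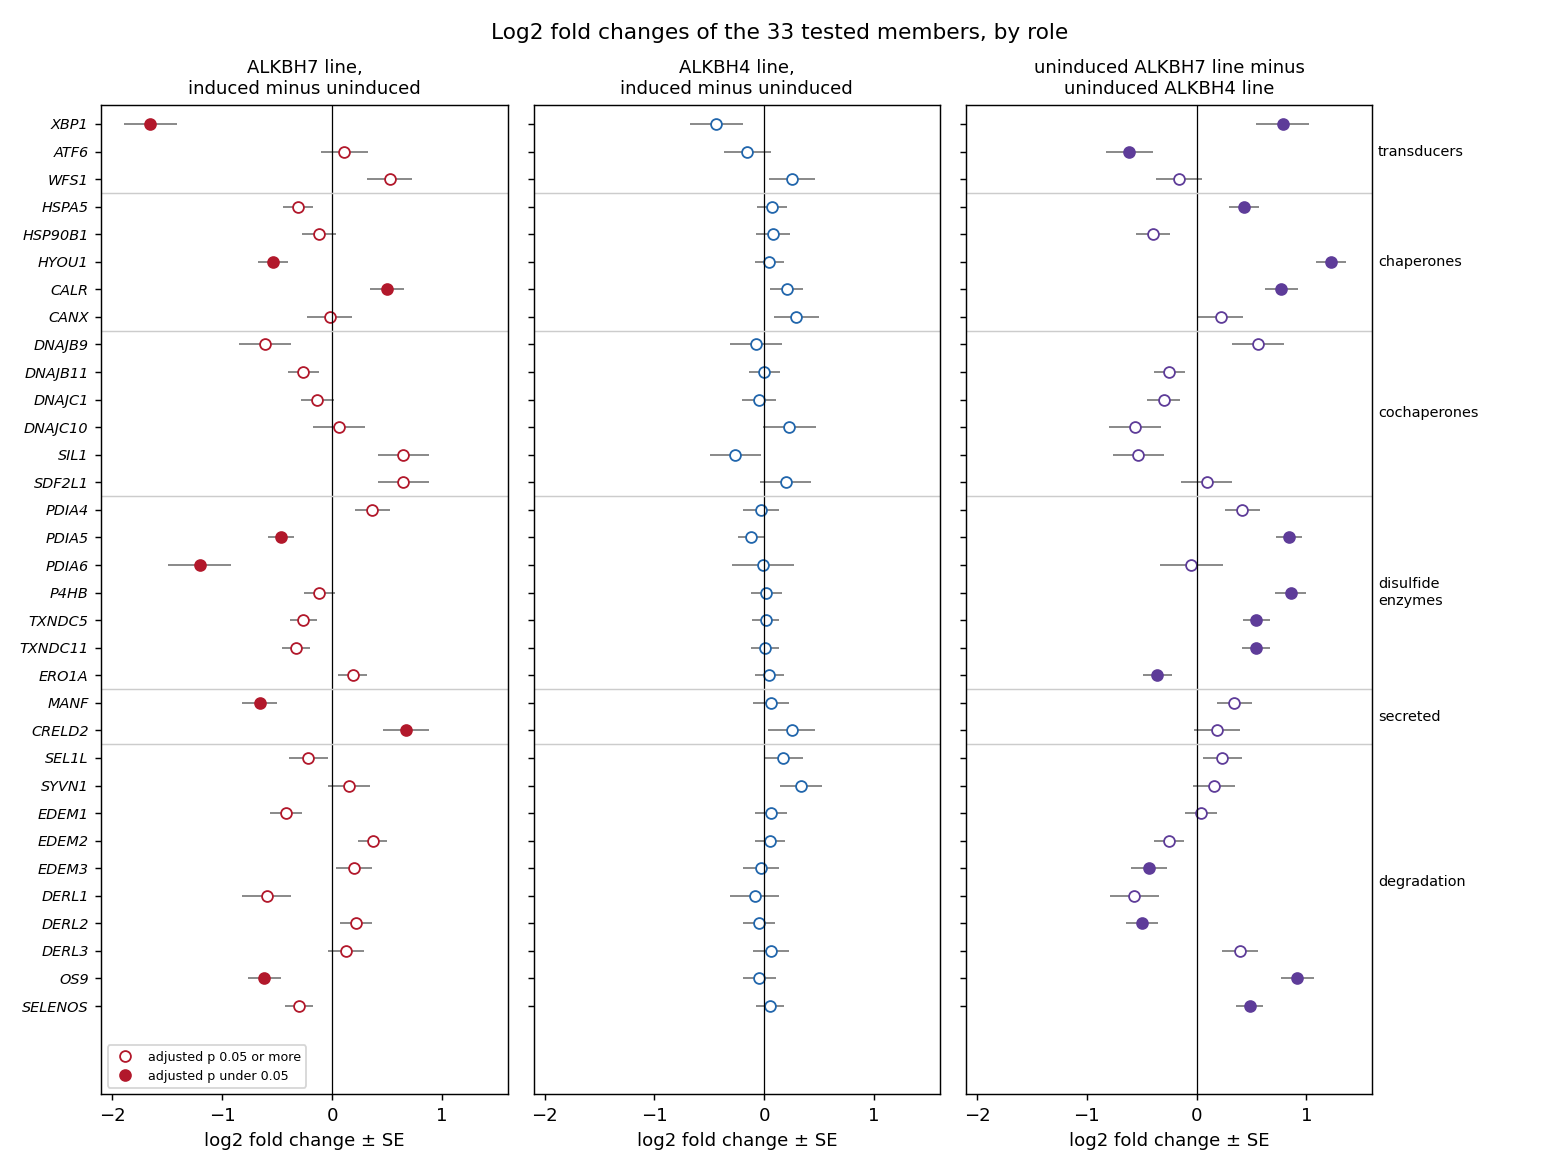
Log2 fold change ± SE of the 33 tested members, in rows by role, in the ALKBH7 line (left), in the ALKBH4 line (middle) and between the uninduced lines (right), with 3 arrays a group. Filled circles have an adjusted p under 0.05, which 8 members reach on the left, 0 in the middle and 14 on the right.

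Genes with more than 1 tested probe showed how far a value depends on the probe. Of 9 such members XBP1 and HYOU1 passed with both probes and in the same direction. For CANX the dimmer probe fell by 0.69 in log2 units (adjusted p = 0.0348) where the brightest had -0.02. The dimmer probe of SELENOS fell by 0.98 (adjusted p = 0.002), against a change of -0.30 at the brightest. DERL2, a paralog of DERL1, had probes of opposite sign, 0.22 at the brightest (adjusted p = 0.285) and -0.97 at the other (adjusted p = 0.0247). SYVN1, the ubiquitin ligase of the pathway, likewise had 0.15 and -0.55, neither of which passed. Its dimmer probe was detected on 5 of 12 arrays. Such values are those of a probe and not of a gene as a whole.

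**Figure D4:**
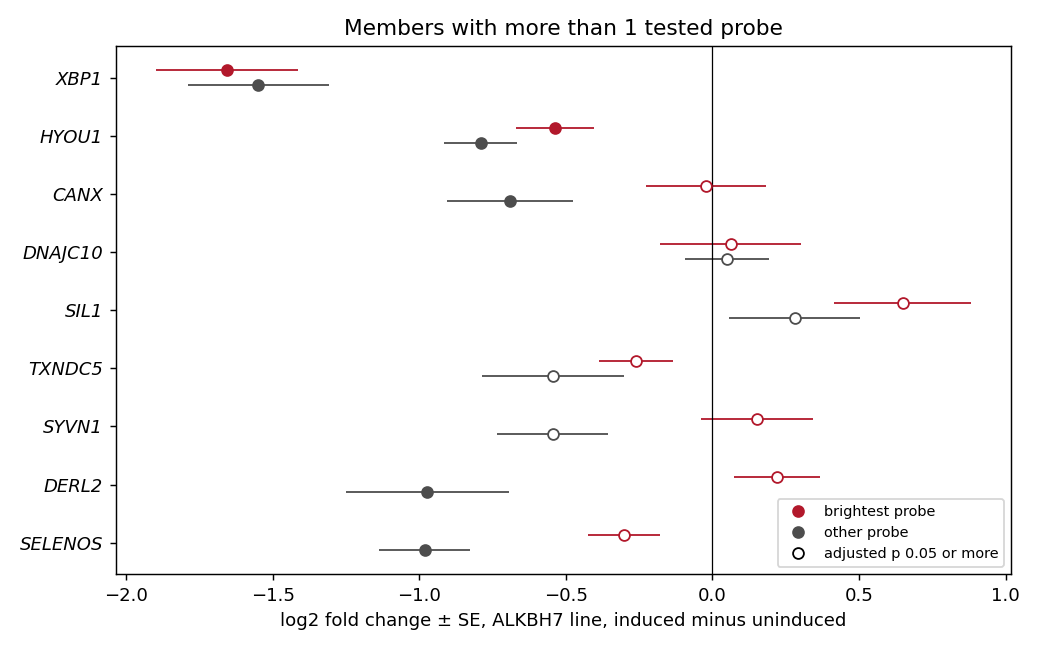
Log2 fold change ± SE in the ALKBH7 line, induced minus uninduced, for the 9 members with more than 1 tested probe. Red circles are the brightest probe, grey circles the other, and open circles have an adjusted p of 0.05 or more. In CANX, DERL2 and SELENOS only the dimmer probe passed, each time as a fall.

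ERSE and ERSE-II did not sort the members by direction. Of 9 tested members with ERSE or ERSE-II, XBP1, PDIA6 and HYOU1 fell, CALR and CRELD2 rose and HSPA5, HSP90B1, CANX and SDF2L1 did not pass. MANF, OS9 and PDIA5 fell and had neither element in the window. Of 18 tested genes outside the list with either element 2 rose, TMEM120A and GYS1, and 2 fell, ERO1B and RUVBL2. Of the 4 members with TGACGTGG 0 rose and 1 fell, HYOU1, with a median log2 fold change of -0.29. Of 100 tested genes outside the list with that sequence 7 rose and 5 fell, with a median of 0.03. All these counts stand beside 12.4% higher and 10.4% lower of all genes.

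Related pathway genes, on lists that were likewise chosen by function with earlier results of these data known, were set beside the members. Their counts describe the lists and are no independent finding. The PERK arm leaned downwards in the ALKBH7 line, with 5 of 9 tested genes lower and 0 higher, against 10.4% lower and 12.4% higher of all genes, and a median log2 fold change of -0.46, against 0.05 over all genes. In the ALKBH4 line the median of the same list was -0.22, against 0.01 over all genes, with 0 of 9 passing and 4 at an unadjusted p under 0.05, namely DDIT3 with -0.63, ATF3 with -0.55, ASNS, an asparagine synthetase, with -0.50 and TRIB3 with -0.48. ATF3, a stress-induced transcription factor, read 10.00, 9.81 and 10.21 in induced ALKBH7 arrays, against 10.87, 11.04 and 11.23 in uninduced arrays, and fell by 1.04 in log2 units (adjusted p = 0.00153). TRIB3, a pseudokinase that binds ATF4, fell by 1.03 (adjusted p = 0.00546), DDIT3, the factor CHOP, by 0.91 (adjusted p = 0.012), and PPP1R15A, which directs the phosphatase of eIF2-alpha, by 0.87 (adjusted p = 0.00584). NCK1, an adaptor protein, fell by 0.46 (adjusted p = 0.048) with a change of -0.06 at its other probe. ATF4 itself, the factor of this arm, had 0.47 at its brightest probe (adjusted p = 0.0818). Its other probes had -1.37, which passed as a fall (adjusted p = 0.00515), and 0.22 (adjusted p = 0.61). ATF4 and NCK1 are named after their values were seen. These genes also answer to amino acid shortage and other stresses, and ATF4 protein was not measured.

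Protein entry into the ER showed 3 of 16 tested genes lower and 0 higher in the ALKBH7 line, beside the same shares of 10.4% lower and 12.4% higher over all genes, against which the counts of the lists that follow also stand. SSR2, a subunit of the translocon-associated complex, fell by 1.04 (adjusted p = 0.0037), SRPRB, of the signal recognition particle receptor, by 0.59 (adjusted p = 0.0086), and SPCS2, of the signal peptidase, by 0.52 (adjusted p = 0.0101). For N-glycosylation 3 of 15 rose and 2 fell. The oligosaccharyltransferase subunits went both ways, RPN1 with -0.94 (adjusted p = 0.00707) and MAGT1 with 1.03 (adjusted p = 0.00325). UGGT1, the sensor of glycoprotein folding, rose by 0.78 (adjusted p = 0.00688). OSTC had -1.13 at its brightest probe (adjusted p = 0.00257) but 0.84 at another, which passed as a rise (adjusted p = 0.0489). The other UGGT1 probe had 0.14.

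Further folding enzymes split into 4 higher and 5 lower of 23 tested, where all genes had 12.4% higher and 10.4% lower. FKBP14, a prolyl isomerase, rose by 1.16 (adjusted p = 0.00233) and TMX4, a membrane thioredoxin, by 0.81 (adjusted p = 0.00999), whereas CNPY3, a co-chaperone of HSP90B1 for Toll-like receptors, fell by 0.91 (adjusted p = 0.00304) and PPIC, a cyclophilin, by 0.89 (adjusted p = 0.00525). The other probes of these genes had 0.36 for FKBP14, 0.25 for TMX4, -0.06 for CNPY3 and 0.30 for PPIC. Of 18 further degradation genes 4 rose and 0 fell, again beside 12.4% and 10.4% of all genes. They were the ubiquitin ligase MARCHF6 with 1.06 (adjusted p = 0.00455; its other probes had -0.27 and 0.41), ERLIN2 with 0.82 (adjusted p = 0.00488), AUP1 with 0.61 (adjusted p = 0.0191) and the conjugating enzyme UBE2J1 with 0.52 (adjusted p = 0.0136). Of 7 genes of ATF6 processing and its relatives MBTPS1, the Golgi protease that cuts ATF6, fell by 0.59 (adjusted p = 0.00921). Their median was -0.25.

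In the ALKBH4 line 0 of 33 members passed after induction, as did 0.0% of all genes. The DERL3 probe, counted among the 33, was detected on 0 induced and 0 uninduced ALKBH4 arrays. At an unadjusted p under 0.05 the limma test gave 0 members and 248 of 10159 genes. The median log2 fold change was 0.04 over the members and 0.01 over all genes. XBP1 had the largest, -0.44 ± 0.24 (adjusted p = 0.999), with 11.21, 11.29 and 11.08 in induced ALKBH4 arrays, against 11.93, 11.77 and 11.20 in uninduced arrays, where the groups overlapped. HSPA5 read 8.75, 8.83 and 8.66 in induced ALKBH4 arrays, against 8.79, 8.64 and 8.61 in uninduced ones. WFS1 and SIL1 had groups without overlap, 6.06% of the members, against 9.81% of all genes.

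Whether the response differed between the lines was tested as the difference of the log2 fold changes, ALKBH7 line minus ALKBH4 line. Of 33 members 0 passed, against 0.0492% of all genes, which is 5 genes, and 7 of 33 members had an unadjusted p under 0.05, as did 1665 of 10159 genes. The difference was -1.22 ± 0.34 for XBP1 (adjusted p = 0.114), -1.19 ± 0.40 for PDIA6 (adjusted p = 0.168), -0.72 ± 0.23 for MANF (adjusted p = 0.145) and -0.58 ± 0.19 for HYOU1 (adjusted p = 0.153). Without uninduced ALKBH7 replicate 1 the difference passed for 8 members, among them XBP1 with -1.53 ± 0.25 (adjusted p = 0.000982), PDIA6 with -1.62 ± 0.23 (adjusted p = 0.000487) and CRELD2 with 0.67 ± 0.23 (adjusted p = 0.0484), while the count over all genes became 1024 higher and 1132 lower.

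The uninduced lines were compared to see from which levels the cells started. They were not alike in ALKBH7 itself, whose probe averaged 9.32 in the uninduced ALKBH7 line and 7.80 in the uninduced ALKBH4 line. This log2 difference of 1.53 ± 0.17 passed in the limma test (adjusted p = 5.21e-05), and its cause was not tested. In the uninduced ALKBH7 line 10 members were higher than in the uninduced ALKBH4 line (30.3%), against 21.7% of all genes, and 4 were lower (12.1%), against 17.0% of all genes. In total 14 members (42.4%) passed, against 38.7% of all genes, and the median difference was 0.19 over the members and 0.00 over all genes, or -0.17 and -0.23 when the arrays were scaled to a common median. Under that scaling 0 of these 14 members passed, beside 260 higher and 696 lower of all genes. The values were 0.94 for HYOU1 (adjusted p = 0.0562), 0.20 for P4HB (adjusted p = 0.674) and 0.09 for XBP1 (adjusted p = 0.885). HYOU1 stood at 9.06, 8.98 and 8.85 in the uninduced ALKBH7 line, against 7.49, 7.88 and 7.85 in the uninduced ALKBH4 line, which is 2.34-fold higher (adjusted p = 4.85e-05). OS9 was higher by 0.92 ± 0.15 (adjusted p = 0.000583), P4HB by 0.85 ± 0.14 (adjusted p = 0.000721), PDIA5 by 0.84 ± 0.12 (adjusted p = 0.000192), XBP1 by 0.78 ± 0.24 (adjusted p = 0.0219) and CALR by 0.77 ± 0.15 (adjusted p = 0.00189). TXNDC11, TXNDC5, SELENOS and HSPA5 were higher by 0.43 to 0.54, of which TXNDC5 and SELENOS turned to -0.07 and -0.13 when the arrays were scaled to a common median.

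P4HB read 12.17, 11.76 and 11.94 in the uninduced ALKBH7 line, against 10.95, 11.23 and 11.12 in the uninduced ALKBH4 line, without overlap. The second probe of TXNDC5 had the opposite sign, -0.68 (adjusted p = 0.0393), and that of XBP1 only 0.26 (adjusted p = 0.408). This TXNDC5 probe lay near background and was detected on 7 of 12 arrays, the brightest one on all 12. Lower members were ATF6 with -0.61 ± 0.22 (adjusted p = 0.0384), DERL2 with -0.50 ± 0.15 (adjusted p = 0.0168), EDEM3, a relative of EDEM1, with -0.44 ± 0.16 (adjusted p = 0.0496) and ERO1A with -0.36 ± 0.13 (adjusted p = 0.046). EDEM3 and ERO1A lay at the threshold and passed in 8 and 7 of 24 alternative settings. ATF6 passed in 14 of 24 and rested on uninduced ALKBH7 replicate 1 (8.55), without which its difference was -0.33 ± 0.16 (adjusted p = 0.109). It also missed the threshold without uninduced ALKBH4 replicate 1 (-0.62, adjusted p = 0.0844) or 2 (-0.48, adjusted p = 0.127), and without an induced array of either line in some fits. HSPA5 had 0.31 ± 0.12 without uninduced ALKBH7 replicate 1 (adjusted p = 0.0562), 0.41 without uninduced ALKBH4 replicate 2 (adjusted p = 0.0526) and 0.40 without replicate 3 (adjusted p = 0.0754), while XBP1 had 0.66 without uninduced ALKBH7 replicate 2 (adjusted p = 0.0701), 0.59 without replicate 3 (adjusted p = 0.0811) and 0.57 without uninduced ALKBH4 replicate 3 (adjusted p = 0.101). DERL2 had -0.36 without uninduced ALKBH4 replicate 1 (adjusted p = 0.0761) and -0.42 without uninduced ALKBH7 replicate 3 (adjusted p = 0.0568). In the PERK arm TRIB3 was higher by 1.79 and DDIT3 by 1.48, whereas ATF4 was lower by 0.63 at its brightest probe (adjusted p = 0.0186). The ATF4 probes differed in sign on induction of the ALKBH7 line, and no alternative setting is given for these genes.

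The uninduced ALKBH7 arrays enter both this comparison and the induction of that line, so a shift of these 3 arrays alone gives the comparisons opposite signs. The levels themselves are therefore set side by side. In the induced ALKBH7 line HYOU1 averaged 8.43 and in the uninduced one 8.96, against 7.78 in the induced and 7.74 in the uninduced ALKBH4 line. OS9 averaged 7.21 in the induced and 7.82 in the uninduced ALKBH7 line, against 6.86 in the induced and 6.91 in the uninduced ALKBH4 line. XBP1 averaged 10.76 in the induced and 12.41 in the uninduced ALKBH7 line, against 11.19 in the induced and 11.63 in the uninduced ALKBH4 line. On this quantile normalized scale XBP1 after induction was below both groups of the ALKBH4 line, with no array in common. On it HYOU1 stayed above all of its ALKBH4 arrays, and OS9 overlapped with them in its lowest array of 6.95. The order of HYOU1 depends on the normalization. Relative to the array median, induced ALKBH4 replicate 3 (unnormalized intensity 235.5, median 45.59) stood above induced ALKBH7 replicate 3 (493.4, median 110.76).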

How the data were processed

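RNA from 12 samples was hybridized to 1-colour Illumina HumanWG-6 v3 bead arrays. The authors exported unnormalized bead intensities with a detection p-value per probe, both deposited. They also deposited quantile normalized intensities, in which each line has its own distribution, so these served as an alternative within lines only. Background subtraction of the export is not given in the sources used here.

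The unnormalized intensities were quantile normalized over the 12 arrays and taken to log2, without background correction. A probe was kept where its detection p-value was under 0.01 in at least 3 of 12 arrays, which left 15444 of 48803 probes. The platform annotation gave 1 symbol to 27578 probes, several to 13 and none to 21212, and the brightest tested probe stood for a gene. The 4 group means were fitted with limma 3.58.1 (lmFit and eBayes) in R 4.3.3, with Benjamini-Hochberg adjustment over all tested probes and a threshold of 0.05. The fit was tested on simulated data. Tables and figures were made with Python 3.11.15, pandas 2.3.3, numpy 2.4.6 and matplotlib 3.10.9. The precision is limited by 3 arrays per group. No pair of arrays held the same values, with at least 48773 probes differing.

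Per-array values are given for members that passed in any comparison, up to 12 by the size of t in the ALKBH7 line, and for ATF6 and EIF2AK3, while wider lists name up to 4 genes. Values of other members and genes beyond these were added after they were seen. The members and lists were chosen with earlier results of these data known. A ranking of members by likeness to HSPA5 across arrays was left out, because the arrays formed 2 clusters by line. Promoter windows came from RefSeq, GRCh38.p14. Alternatives covered background, normalization, filter, model, threshold, choice of probe and arrays left out.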

Additional observations from a re-analysis of the deposited data

How the results depend on the processing

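Against 8 members in the ALKBH7 line, 0 passed when the arrays were scaled to a common median, 23 with array weights, 5 with each line fitted alone, 1 at an adjusted p of 0.01 and 17 at 0.1, and 1 to 17 when 1 array was left out. The response difference went from 0 members to 15 with array weights and had 0 to 8 when 1 array was left out. Between the uninduced lines, 14 members became 1 under median scaling and 8 at an adjusted p of 0.01, with 10 to 16 when 1 array was left out. In the ALKBH4 line 0 members passed under every alternative run. Over all genes, array weights called 3147 higher and 2491 lower in the ALKBH7 line and 2242 higher and 1958 lower for the response difference. Leaving out uninduced ALKBH7 replicate 1 called 2405 and 2056 in that line. There median scaling called 1 gene higher and 0 lower, and the line fitted alone 627 and 448. The counts there were 384 and 354 at an adjusted p of 0.01, and 1869 and 1513 at 0.1. Between the uninduced lines they were 260 and 696 under median scaling, and 1370 and 853 at 0.01. Median scaling moved the median of all genes to 0.31 in the ALKBH4 line, 0.11 in the ALKBH7 line, -0.19 for the response difference and -0.23 between the uninduced lines. It turned the line difference of SELENOS to -0.13 and of TXNDC5 to -0.0658, and the mean of a gene's probes turned TXNDC5 to -0.0700. The cause was not tested. XBP1 passed as a fall in 26 of 27 alternatives, the exception being median scaling. These include a threshold of 0.1, which a gene with an adjusted p under 0.05 cannot miss. They also include fits without an ALKBH4 array, which leave its log2 fold change in the ALKBH7 line unchanged.

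The labels do not tell whether same-numbered induced and uninduced arrays shared a culture or batch. Deviations of same-numbered arrays correlated at -0.13, 0.26 and 0.11 in the ALKBH4 line and at 0.41, -0.12 and 0.17 in the ALKBH7 line. Arrays with different numbers gave -0.47 to 0.38 in the ALKBH4 line and -0.37 to 0.35 in the ALKBH7 line. Deviations within so small a group depend on one another, so these correlations cannot decide whether the arrays were paired. With the replicate number as a block 12 members passed in the ALKBH7 line and 15 between the uninduced lines. In the ALKBH4 line and for the response difference 0 passed. Over all genes this block called 1320 higher and 1120 lower in the ALKBH7 line, and 2172 and 1832 between the uninduced lines. Quantile normalization within each line and the authors' normalized values were not run between the lines, whose distributions they keep apart, and fitting each line alone gives no comparison between lines. Probes near background, such as those of EIF2AK3, DNAJC3 and PDIA3, set the limit of what the arrays could show.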
